A study of Mus musculus with 18 samples.

Results

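The maturation of XCR1+ dendritic cells (DCs) in the thymus of germ-free mice was read from 6 of the 18 arrays of the series, all those whose labels give germ-free housing (GF). They were 3 arrays of immature cells, sorted as CCR7- and CD117+, and 3 of homeostatically matured cells, sorted as CCR7+ and CD117-. Both gates also took CD11c+, MHCII+ and CD8a+ cells that lacked CD11b and CD172a, and the maturation change is the CCR7+ minus the CCR7- value. The GF mice were wild-type B6 mice without any treatment. The other 12 arrays, sorted in the same way with 3 arrays per stage, came from untreated wild-type B6 mice kept free of specific pathogens (CTRL) and from untreated Ifnar1-KO mice on B6 under that housing, which lack a chain of the type I interferon receptor. The labels used here give no age, and separate animals behind the replicates are not stated, so the tests measure the spread between arrays, which may be technical. The comparison asks how these cells mature without microbes, and whether that change differs from the change in CTRL and in Ifnar1-KO mice.

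Among DCs, the XCR1+ cells specialise in presenting antigens of engulfed dead cells to CD8 T cells. A share of them matures in the steady state, without infection: the cells gain CCR7, the chemokine receptor that guides DCs into T cell areas, and lose genes of the immature state. In the thymus, such mature DCs display self antigens to developing T cells and take part in deleting self-reactive thymocytes and in forming regulatory T cells.

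All values are log2 intensities of Affymetrix mouse arrays, from 0.7 to 7.3 ng of amplified RNA per sample. A value after ± is the limma SE of the change (3 arrays in each group). The spread behind each SE and p was pooled over the arrays of all groups, CTRL and Ifnar1-KO included. It is therefore not the spread of the GF arrays alone. A gene is called where its Benjamini-Hochberg adjusted p, over 19938 genes, lies under 0.05. Array values are listed in the order of replicates 1, 2 and 3, as numbered in the labels. Correlations over all genes were 0.985 to 0.988 among the GF CCR7- arrays, 0.979 to 0.985 among the GF CCR7+ arrays, and 0.909 to 0.930 between the stages. The array medians lay between 4.63 and 4.7. As a gauge of background, Xist, the RNA of the inactive X chromosome, read 3.80 to 4.37 on the 6 GF arrays, on which the Y-linked Eif2s3y read 7.71 to 8.76. Background differs between probesets, but a gene that lies in that range at either stage may have changed by more than its measured value.

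The sort genes moved with the gates in GF mice. Ccr7 read 9.09, 7.25 and 7.77 in CCR7- and 11.96, 11.93 and 12.09 in CCR7+ cells, a rise of 3.96 ± 0.35 (adjusted p = 9.91e-07). Kit, which encodes CD117, read 9.15, 8.96 and 8.54 and then 5.5, 6.0 and 6.55, and fell by 2.87 ± 0.34 (adjusted p = 1.39e-05). The arrays of both genes did not overlap between stages, and within CCR7- cells replicate 1 had the highest Ccr7 value. Xcr1, the chemokine receptor on which both gates relied, fell by 4.39 ± 0.60, from 11.42, 11.46 and 11.28 to 6.44, 7.97 and 6.6 (adjusted p = 6.84e-05); its highest CCR7+ value was that of replicate 2. Itgax (CD11c) fell by 2.52 ± 0.34. Cd8a had a change of -0.37 ± 0.18 (adjusted p = 0.193) and Sirpa, which encodes the excluded CD172a, had 0.77 ± 0.28 (adjusted p = 0.0694); neither was called. Itgam (CD11b), also excluded, read 3.75 to 3.96 on the 6 arrays. Fewer cells of a type and less RNA per cell cannot be told apart in such sorted bulk samples.

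In GF mice 4256 genes were called, 21.3% of those tested: 1900 genes (9.53%) rose and 2356 (11.8%) fell with maturation. At a log2 change of at least 1, 913 genes rose and 1237 fell. The 3 CCR7+ arrays lay wholly above or below the 3 CCR7- arrays for 4135 of the 4256 called genes. Over all genes tested the arrays separated in this way for 33.6%. The median change over all genes was 0.03.

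The 12 largest rises were led by Insl6 and Stat4. Insl6, a relaxin-like peptide, read 4.21, 3.59 and 4.09 in CCR7- and 10.31, 10.21 and 10.67 in CCR7+ cells, a rise of 6.44 ± 0.30 or 86.7-fold (adjusted p = 1.36e-09). Stat4, the transcription factor of interleukin 12 signalling, went from 4.17, 3.81 and 3.96 to 10.23, 10.2 and 10.22, a rise of 6.24 ± 0.17 (adjusted p = 2.95e-11). The 3 CCR7+ arrays of Stat4 were nearly equal. Both genes started within or below the range of Xist, so their rises may be lower bounds. Socs2, a feedback inhibitor of cytokine receptors, read 6.1, 4.07 and 4.7 and then 10.79, 10.68 and 10.82, a rise of 5.81 ± 0.37. Tnfrsf4 (OX40), a costimulatory receptor of the TNF family, rose by 5.63 ± 0.26, from 5.92, 4.52 and 4.99 to 10.54, 10.92 and 10.85. In both, CCR7- replicate 1 was the highest of its group, while the CCR7+ arrays lay close together.

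The other 8 of the largest rises had changes of 5.25 to 5.56. They were the metallothionein Mt2 (5.56 ± 0.31), the protease inhibitor Serpinb1a (5.48 ± 0.24), Atxn1 (5.45 ± 0.73), the phospholipid-binding Anxa3 (5.45 ± 0.21), the nucleotide hydrolase Nudt17 (5.45 ± 0.25), the actin-severing Scin (5.38 ± 0.23), the chemokine Ccl5 (5.25 ± 0.33) and Fscn1 (5.25 ± 0.45), which bundles actin in the dendrites of mature DCs. Fscn1 read 8.52, 6.93 and 6.69 in CCR7- and 12.65, 12.61 and 12.62 in CCR7+ cells. Atxn1 had the widest spread: its CCR7- arrays read 7.02, 3.44 and 3.46, with replicate 1 far above the others, against 10.53, 9.93 and 9.83 in CCR7+ cells. Without CCR7- replicate 1 the rise of Atxn1 was 6.65.

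**Figure D1:**
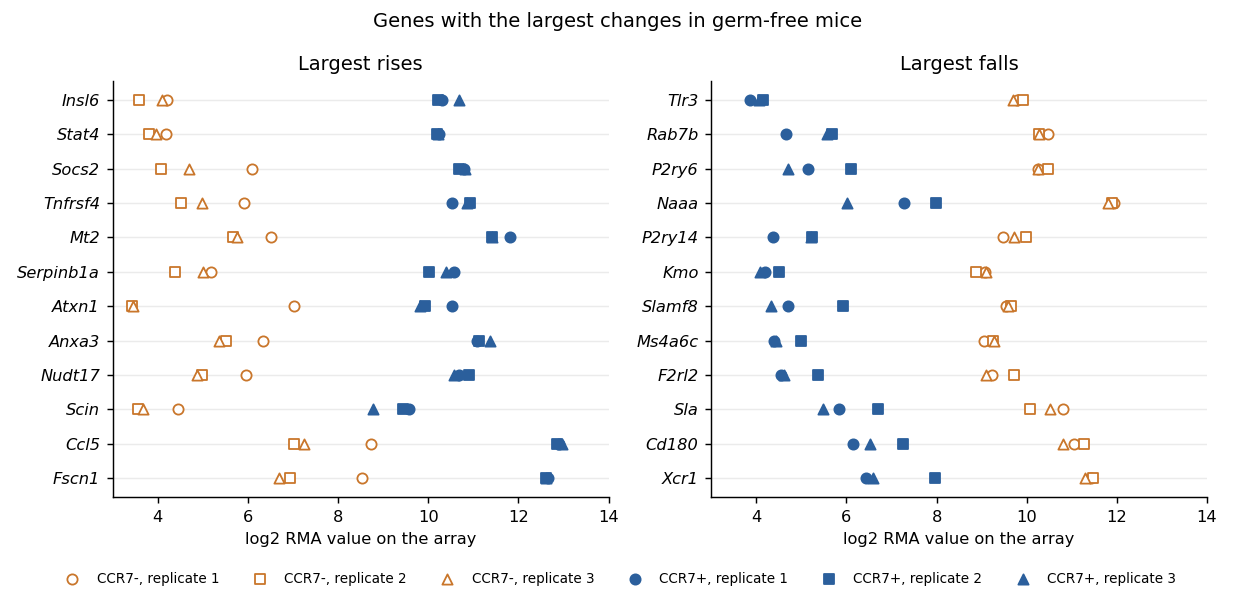
Log2 RMA values (horizontal axis) of the 12 genes with the largest rises (left) and the 12 with the largest falls (right) on each of the 6 germ-free arrays; open symbols are CCR7- and filled symbols CCR7+ arrays, with a shape for each replicate. The stages do not overlap for these genes, a condition of their choice; among the rises the CCR7- replicate 1 array often lies above the other CCR7- arrays, as for Atxn1 (7.02 against 3.44 and 3.46), and among the falls the CCR7+ replicate 2 array often lies highest, as for Xcr1 (7.97 against 6.44 and 6.6).

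The largest fall was that of Tlr3, the endosomal sensor of double-stranded RNA. It read 9.79, 9.91 and 9.7 in CCR7- and 3.85, 4.16 and 4.06 in CCR7+ cells and fell by 5.77 ± 0.22 or 54.7-fold (adjusted p = 4.85e-10), ending in the range of Xist. Rab7b, a late endosomal GTPase, fell by 5.03 ± 0.38, from 10.46, 10.26 and 10.28 to 4.65, 5.68 and 5.58. The nucleotide receptors P2ry6 and P2ry14 changed by -5.01 ± 0.33 and -4.79 ± 0.35. Naaa, a lysosomal amidase of lipid mediators, read 11.94, 11.9 and 11.81 in CCR7- and 7.27, 8.0 and 6.0 in CCR7+ cells and fell by 4.79 ± 0.59. Its 3 CCR7- arrays lay close together, whereas its CCR7+ arrays were spread widely, with replicate 3 lowest. The remaining falls were Kmo, an enzyme of tryptophan breakdown (-4.75), Slamf8 (-4.61), Ms4a6c (-4.57), the protease-activated receptor F2rl2 (-4.51), the adaptor Sla (-4.46), the Toll-like receptor homologue Cd180 (-4.40) and Xcr1.

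The genes known from mature DCs in other organs went up as a group. All 36 measured members of this list were called higher, with a median change of 3.32 against 0.03 over all genes and changes between 1.09 and 6.24. The list was drawn up with results of these samples in view, so its direction is not independent evidence. Besides Stat4, Socs2, Tnfrsf4, Anxa3, Ccl5 and Fscn1 it held the signalling adaptor Gadd45b at 3.99 ± 0.44 and the interleukin 12 subunit Il12b at 3.97 ± 0.50. Il12b read 9.24, 6.63 and 6.8 in CCR7- and 11.6, 11.54 and 11.42 in CCR7+ cells, again highest in replicate 1 among the CCR7- arrays. The smallest called rises of the list, chosen here after their values were seen, were those of Marcksl1 (1.09), Nr4a3 (1.22) and Tbc1d4 (1.26).

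The GF arrays differed in these genes mainly on the CCR7- side. The mean level of the 36 genes was 7.85, 6.82 and 6.99 on the 3 GF CCR7- arrays, so replicate 1 stood about 1 log2 unit above the others, and 10.75, 10.64 and 10.69 on the CCR7+ arrays. On CTRL CCR7- arrays the same mean was 7.66 to 7.93, and on Ifnar1-KO CCR7- arrays 7.15 to 7.59. Replicate 1 was the highest GF CCR7- array for 33 of the 36 genes, against 28% of all genes. It lay within the range of the 3 CTRL CCR7- arrays for 24 of the 36, while replicates 2 and 3 lay below all 3 CTRL CCR7- arrays for 27 and 30 of them (75% and 83.3%, against 25.9% and 26% of all genes). Cd63, a tetraspanin of late endosomes, is an example: its CCR7- arrays read 9.57, 6.57 and 6.55 in GF mice and 9.09 to 9.84 in CTRL mice. Without CCR7- replicate 1 the median change of the list was 3.6. Whether the arrays differ in the share of cells that had begun to mature was not tested.

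**Figure D2:**
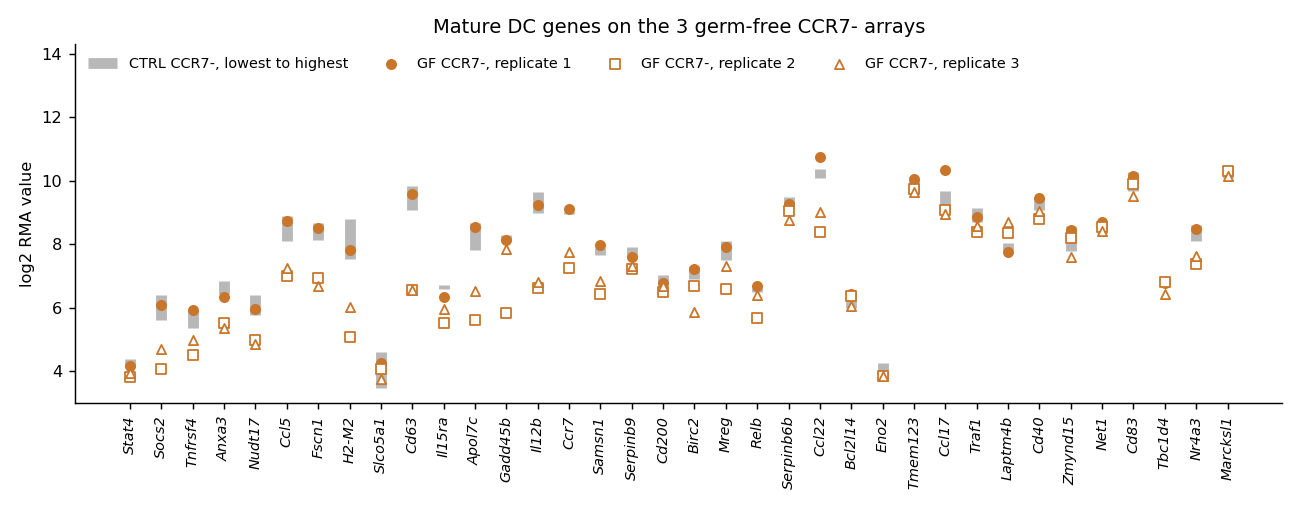
Log2 RMA values (vertical axis) of the 36 measured mature DC genes, ordered by their change in germ-free mice, on the 3 germ-free CCR7- arrays (filled circle replicate 1, open square replicate 2, open triangle replicate 3); grey bars run from the lowest to the highest of the 3 CTRL CCR7- arrays. Replicate 1 is the highest germ-free array for 33 of 36 genes, and replicates 2 and 3 lie below the grey bar for 27 and 30 genes.

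NF-kB is the transcription factor family that drives DC maturation, kept in check by inhibitor proteins that are among its own targets. Of 23 measured family members and targets 21 rose, 0 fell, and the median change was 1.40. Relb, the partner subunit of the alternative NF-kB pathway, read 6.68, 5.69 and 6.39 in CCR7- and 9.52, 9.3 and 9.18 in CCR7+ cells, a rise of 3.08 ± 0.21 (adjusted p = 7.03e-08). The ubiquitin ligase Birc2 (cIAP1) rose by 3.29 ± 0.25, Gadd45b by 3.99 ± 0.44 and the TRAF-binding adaptor Tank by 2.41 ± 0.23. The arrays of each gene separated by stage. Members on both sides of the pathway rose: among genes chosen after their values were seen, the subunits Nfkb2 (1.99) and Rel (1.34) rose, and so did the inhibitors Nfkbia (1.41), Nfkbie (1.15) and Tnfaip3 (1.75). Ikbke (0.23) and Cyld (0.21) were not called.

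Costimulatory and coinhibitory genes split, with 15 of 24 higher and 6 lower, beside 9.53% and 11.8% of all genes. The ligands of the inhibitory receptor PD-1 were among the strongest rises: Pdcd1lg2 (PD-L2) rose by 5.18 ± 0.28, from 5.09, 3.9 and 4.12 to 9.74, 9.47 and 9.43, and Cd274 (PD-L1) by 4.54 ± 0.36, from 6.61, 4.87 and 5.24 to 10.37, 10.17 and 9.8. Havcr2 (TIM-3), an inhibitory receptor that also binds dying cells, fell by 4.3 ± 0.40, from 10.39, 9.69 and 9.92 to 5.44, 6.73 and 4.93. Of the classical costimulators, chosen after their values were seen, Cd80 rose by 1.81 and Cd40 by 1.96, while Cd86 fell by 0.33. A list of tolerance and regulatory T cell genes shares members such as Cd274 and Socs2 with other lists. Of its 22 members 12 were higher and 3 lower, the falls at a share near that of all genes. Its integrin chain Itgb8, which activates latent TGF-beta, rose by 3.69 ± 0.16, with CCR7- arrays at 4.12, 4.18 and 4.37 and CCR7+ arrays at 7.76, 8.06 and 7.91. The Itgb8 arrays lay close together within each stage.

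Of 28 chemokines and cytokines 14 rose and 9 fell, beside 9.53% and 11.8% of all genes. Ccl5, a ligand for receptors on effector T cells, read 8.74, 7.01 and 7.25 in CCR7- and 12.91, 12.86 and 12.97 in CCR7+ cells. Ccl3, which shares a receptor with Ccl5, moved the other way: it read 9.44, 7.44 and 8.74 and then 4.81, 5.06 and 3.79, a fall of 3.98 ± 0.57 (adjusted p = 9.66e-05). Il18, a cytokine made as an inactive precursor, fell by 3.57 ± 0.24, from 7.87, 7.99 and 7.37 to 3.83, 4.13 and 4.56. Ccl22 and Ccl17, which attract regulatory T cells, rose by 2.91 and 2.40; they were chosen after their values were seen. Of 24 cytokine and growth factor receptors 7 rose and 6 fell. The largest rises were in receptor chains for relatives of interleukin 2 and in a TNF receptor: Il21r (4.68 ± 0.20), Il15ra (4.2 ± 0.20), Il2ra (3.62 ± 0.31) and Tnfrsf1b (3.33 ± 0.28). Ifnar1 itself had a change of -0.39 ± 0.28 (adjusted p = 0.399).

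Migration and cytoskeleton genes held 12 rises and 9 falls among 31, with a median of 0.00. Over all genes 9.53% rose and 11.8% fell. Scin went from 4.44, 3.55 and 3.67 to 9.58, 9.44 and 8.76, and the tubulin Tubb2b rose by 3.89 ± 0.32. With Fscn1 and Ccr7 these were the 4 largest changes of the list. Among genes chosen after their values were seen, the cytoskeletal regulators Iqgap2 (-2.49), Evl (-2.36) and Hcls1 (-2.31) fell.

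Genes that define the XCR1+ DC lineage fell for the most part: of 24 measured, 18 were lower and 3 higher, with a median of -2.70. Over all genes 11.8% fell and 9.53% rose, so the 3 rises lay near that share. Tlr3, Rab7b, Naaa and Xcr1 led the list. On the GF CCR7+ arrays the mean level of the 24 genes was 7.38, 7.91 and 7.41, with replicate 2 highest for 14 of 24 genes, against 35% of all genes. The transcription factors of the lineage did not share the fall. Batf3 rose by 0.60 (limma adjusted p = 0.0474, just under the threshold) and Id2 rose by 0.18 (adjusted p = 0.0284). Irf8 had a change of -0.33 and was not called. These 3 were chosen after their values were seen.

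Microbial sensors and their adaptors let DCs detect infection. Of 35 measured genes 14 fell, with a median of -0.42, and 3 rose, a share near the 9.53% of all genes. Tlr3 was followed by Nod1, a sensor of bacterial peptidoglycan, at -1.91 ± 0.32, by Tlr12, a sensor of a protozoan protein, at -1.88 ± 0.22, and by Nlrp3, the core of an inflammasome, at -1.73 ± 0.20. Nod1 read 5.85, 6.33 and 6.1 in CCR7- and 4.12, 4.21 and 4.22 in CCR7+ cells, and Nlrp3 5.55, 5.56 and 4.78 and 3.5, 3.48 and 3.71; both ended within or below the range of Xist. Calls in the list fell from 17 to 11 when both arrays of any of the 3 replicate numbers were left out.

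Uptake of dead cells and breakdown of their contents changed gene by gene. Of 23 uptake genes 6 fell and 4 rose, beside 11.8% and 9.53% of all genes. The scavenger receptor Cd36 fell by 4.28 ± 0.45, from 10.37, 10.44 and 10.24 to 4.79, 7.19 and 6.21, and Anxa1, which dying cells expose, fell by 4.16 ± 0.47. The bridging protein Mfge8, which links dying cells to integrins, rose by 3.66 ± 0.20, from 6.32, 5.5 and 5.57 to 9.35, 9.64 and 9.39. Of 31 lysosomal genes 12 rose and 12 fell. The membrane proteins moved in opposite directions: Cd63 rose by 4.55 ± 0.62 and Lamp1 by 3.0 ± 0.16, while Cd68 fell by 3.04 ± 0.32.

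Antigen presentation genes also split. In the MHC class II pathway 6 of 16 rose and 6 fell. Ciita, the master activator of class II transcription, fell by 3.0 ± 0.21, from 9.03, 8.65 and 8.39 to 5.91, 5.77 and 5.4, and of the peptide-loading genes H2-DMa fell by 2.51 ± 0.23 and H2-Ob fell by 2.24 ± 0.39. Lgmn, a lysosomal protease, rose by 3.23 ± 0.21, from 6.87, 6.92 and 7.13 to 10.34, 10.24 and 10.04. The class II chains H2-Aa (-0.15) and H2-Eb1 (-0.27) and the invariant chain Cd74 (-0.11), chosen after their values were seen, were not called, while the chain H2-Ab1 fell by 0.34 (adjusted p = 0.0115). Of 19 genes of the class I pathway and cross-presentation 7 rose and 4 fell, beside 9.53% and 11.8% of all genes. Wdfy4, required for cross-presentation by these DCs, fell by 4.32 ± 0.40, from 11.29, 11.01 and 10.76 to 6.06, 7.52 and 6.52, and Unc93b1, which carries endosomal Toll-like receptors, fell by 1.63 ± 0.16. The peptide editor Tapbpl rose by 1.75 ± 0.14 and the proteasome activator Psme2 by 1.12 ± 0.16.

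Genes induced by type I interferon showed no shared direction: of 46 measured, 8 rose, 12 fell and 26 were not called, with a median of -0.02. Over all genes 9.53% rose and 11.8% fell. Epsti1 rose by 3.47 ± 0.18, from 9.26, 8.19 and 8.66 to 12.27, 12.16 and 12.08. Ifi203 fell by 2.39 ± 0.28 and Ms4a4c fell by 1.8 ± 0.28. Ifit2 had a change of -1.8 ± 0.55 (adjusted p = 0.0283), but its CCR7+ arrays read 6.11, 7.85 and 6.54, and 6 of 17 alternative settings ended its call. Of 19 genes induced by interferon gamma 9 rose and 3 fell, the falls at a share near that of all genes. Ciita fell by 3.0, and Cxcl9 (-2.31) and Irgm1 (-2.05), chosen after their values were seen, fell too. The guanylate-binding proteins Gbp5 and Gbp4, which attack vacuoles that hold pathogens, rose by 4.53 ± 0.25 and 4.02 ± 0.29, and the transcription factor Irf1 by 3.83 ± 0.25. Gbp5 read 5.69, 4.72 and 4.87 in CCR7- and 9.9, 9.42 and 9.54 in CCR7+ cells of these germ-free mice.

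Genes of cell division fell. Of 34 mitosis genes 31 were lower and 0 higher, with a median of -2.56, and of 37 DNA replication genes 30 were lower and 0 higher, with a median of -1.43. Ccnb2, a cyclin that activates the mitotic kinase, read 9.95, 9.9 and 10.08 in CCR7- and 5.42, 6.25 and 5.19 in CCR7+ cells and fell by 4.36 ± 0.42 (adjusted p = 2.01e-06). Kif23, a motor of cell separation, fell by 3.74 ± 0.37, from 9.18, 8.76 and 8.49 to 5.03, 5.7 and 4.48. The cyclin Ccna2 fell by 3.65 ± 0.42 and the spindle checkpoint kinase Bub1 fell by 3.61 ± 0.29. Cenpe (-2.07), Mki67 (-1.52) and Cenpf (-1.45), the only mitosis genes not called, also had negative changes and were picked out for missing the call. In the replication list the nucleotide reductase subunit Rrm2 fell by 3.26 ± 0.20, the helicase subunit Mcm7 fell by 2.91 ± 0.22, the primase Prim1 fell by 2.84 ± 0.28 and the transcription factor E2f8 fell by 2.81 ± 0.28.

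Many genes of mitosis carry 2 short promoter elements known from earlier work, the CCAAT box (CCAAT) and the cell cycle homology region (CHR, TTTGAA), bound by the activator NF-Y and by MuvB complexes that repress in resting and activate in dividing cells. In RefSeq promoters of build GRCm38.p6, from 250 bases before to 50 after the start, and counting both strands, TTTGAA was found in 24 of 30 promoters of 28 mitosis genes (80%) and in 17.9% of 32851 promoters of all genes. CCAAT was found in 80% and 37.4%, and both motifs in 73.3% and 6.95%. Promoters of the replication list held TTTGAA in 12.8% and CCAAT in 56.4% of 39 cases. Those of all genes called lower in GF mice held them in 15.3% and 40.4%. Promoters of the genes tested, a narrower set than the 32851, held them in 14.8% and 37.4%. The windows below, from 110 bases before to 20 after the start and in the direction of transcription, show the 2 largest falls and Bub1, whose window lacks TTTGAA. Capitals mark each CCAAT, in either direction, and each TTTGAA. Ccnb2 lies at chr9:70421535-70421664, Kif23 at chr9:61946780-61946909 and Bub1 at chr2:127831840-127831969, all on the minus strand.
Ccnb2: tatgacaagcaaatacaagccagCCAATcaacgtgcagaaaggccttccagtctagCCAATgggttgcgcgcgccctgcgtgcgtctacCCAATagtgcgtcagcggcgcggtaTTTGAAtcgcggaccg
Kif23: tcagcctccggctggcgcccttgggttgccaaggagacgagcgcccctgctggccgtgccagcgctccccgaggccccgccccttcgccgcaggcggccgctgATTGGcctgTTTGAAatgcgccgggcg
Bub1: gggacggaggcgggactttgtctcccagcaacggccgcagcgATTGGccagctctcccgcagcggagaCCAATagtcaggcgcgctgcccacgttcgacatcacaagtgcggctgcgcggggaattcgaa
Ccnb2 held 3 CCAAT boxes, 87, 54 and 21 bases before the start, and TTTGAA at base 5 after it. Kif23 held a reversed CCAAT box 7 bases before the start and TTTGAA at base 3. Bub1 held CCAAT boxes at 42 bases and, reversed, at 68 bases before the start. A match is a description of the letters and not a measured binding site.

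The mitosis genes also differed among the GF CCR7- arrays. Their mean level was 8.27, 7.46 and 7.33 on the CCR7- arrays and 5.14, 5.20 and 5.13 on the CCR7+ arrays, against 7.93 to 8.06 and 4.84 to 5.19 in CTRL mice. Replicate 1, which had the highest mature DC genes, was also highest for 32 of 34 mitosis genes. It lay above all 3 CTRL CCR7- arrays for 27 of the 34 (79.4%, against 25.1% of all genes), and replicates 2 and 3 lay below them for 23 and 25. Bub1 read 8.25, 7.5 and 6.9 in CCR7- and 3.64, 4.45 and 3.73 in CCR7+ cells, so replicate 1 was highest before maturation.

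Genes of ribosome production fell too. Of 27 ribosome biogenesis genes 25 were lower and 0 higher, with a median of -1.20. Wdr12 and Nop58, factors of ribosomal RNA processing, changed by -3.01 ± 0.32 and -2.93 ± 0.28, the pseudouridine synthase Dkc1 fell by 2.26 ± 0.27 and the RNA polymerase I subunit Polr1a fell by 2.19 ± 0.25. Of 22 immediate early and stress genes 10 were lower and 2 higher, beside 11.8% and 9.53% of all genes, so the rises lay near that share. Calls in this list fell from 12 to 8, 8 and 9 without both arrays of replicate 1, 2 or 3. Myc, the transcription factor that drives ribosome production, fell by 3.01 ± 0.21, from 8.8, 8.86 and 8.71 to 5.7, 6.17 and 5.45. Egr2 fell by 3.5 ± 0.38, Nr4a1 fell by 2.57 ± 0.36 and Egr1 fell by 1.77 ± 0.34.

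Metabolic genes split. Of 23 genes of mitochondrial respiration 11 fell and 1 rose (median -0.58), led by the citric acid cycle enzymes Fh1 (-2.28 ± 0.35) and Idh3a (-1.84 ± 0.20). Of 20 genes of glycolysis and glycogen 9 fell and 4 rose. Pygl, which breaks down glycogen, rose by 4.85 ± 0.22, from 4.46, 4.15 and 4.12 to 9.43, 9.38 and 8.46. The regulatory enzyme Pfkfb3 rose by 3.26 ± 0.18 and the enolase Eno2 by 2.7 ± 0.39, while the lactate dehydrogenase Ldha fell by 2.24 ± 0.30. Of 22 cholesterol genes 6 rose and 2 fell, the falls at a share near that of all genes. The isoprenoid enzyme Idi1 rose by 3.99 ± 0.24, the sterol exporter Abcg1 by 1.85 ± 0.15 and the squalene synthase Fdft1 by 1.5 ± 0.22. Without both replicate 2 arrays the cholesterol calls fell from 8 to 4. In the BCL2 family, which decides survival, 6 of 18 rose and 3 fell, the falls at a share near that of all genes. The survival gene Bcl2l1 (BCL-XL) rose by 2.39 ± 0.30 and the death-promoting Bcl2l11 (BIM) by 1.42 ± 0.22. The family member Bcl2l14 (BCL-G) rose by 2.9 ± 0.16, while the death-promoting Bid fell by 1.58 ± 0.20.

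**Figure D3:**
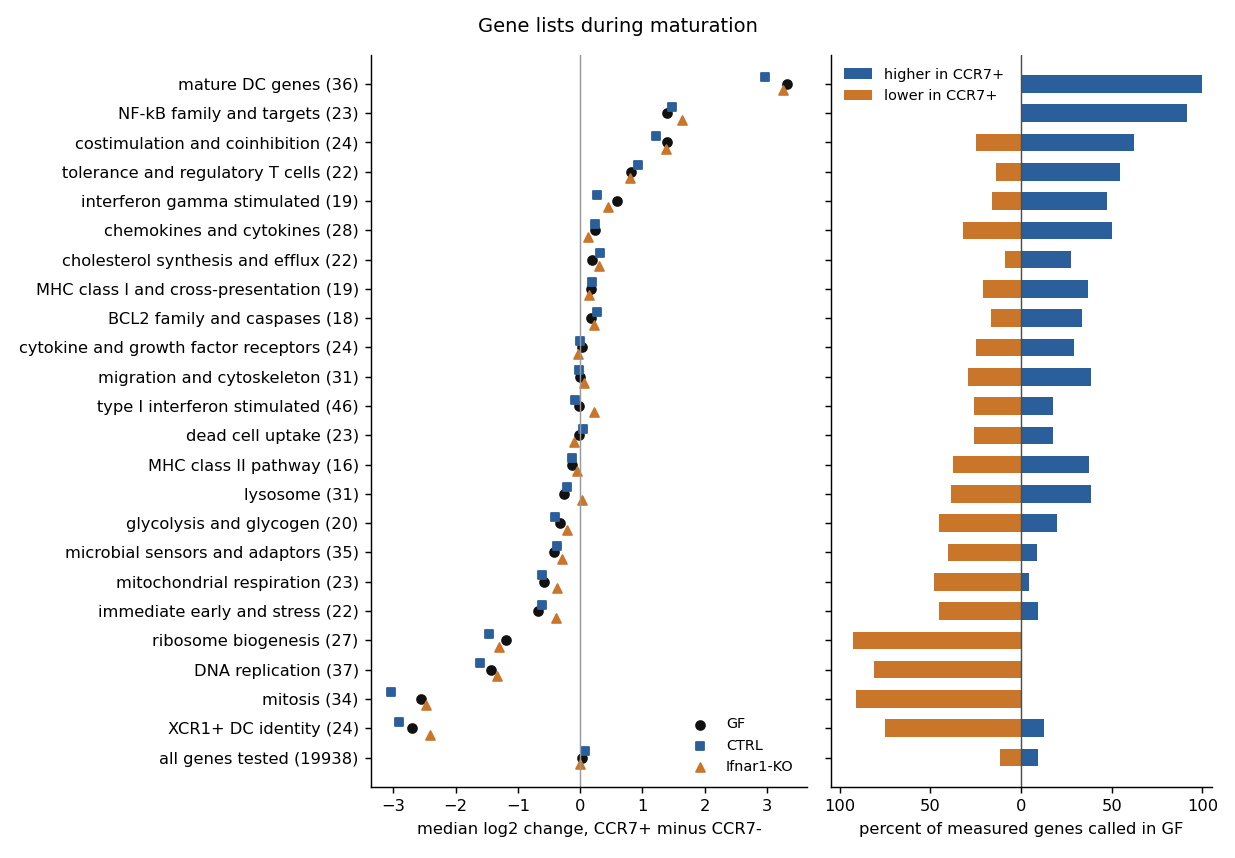
Left, the median log2 change (CCR7+ minus CCR7-) of each gene list in germ-free (GF, circles), CTRL (squares) and Ifnar1-KO mice (triangles), with the number of measured genes in brackets. Right, the percent of measured genes called higher (right of 0) or lower (left of 0) in GF mice; mature DC genes (median 3.32, 36 of 36 higher) lie at the top, mitosis (median -2.56, 31 of 34 lower) and XCR1+ DC identity genes (median -2.70, 18 of 24 lower) have the lowest medians, and all genes (median 0.03) stand in the last line.

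Markers of other thymic cells were read on the same arrays. Of 18 thymocyte markers 3 were called higher in CCR7+ cells and 0 lower, beside 9.53% and 11.8% of all genes. The median was 0.99, and 15 of the 18 had arrays that separated by stage, against 33.6% of all genes. The mean level of the markers was 4.54, 4.63 and 4.77 on the CCR7- arrays and 5.37, 6.08 and 5.63 on the CCR7+ arrays. Among the CCR7+ arrays replicate 2 was highest for 13 of 18, against 35% of all genes. Rag1, the recombinase of developing lymphocytes, read 4.63, 4.4 and 4.69 and then 6.0, 8.4 and 7.55. Its change of 2.74 ± 0.90 (adjusted p = 0.0421) and that of Cd3g, 2.46 ± 0.77 (adjusted p = 0.0322), lost their calls in 8 and 7 of 17 alternatives. Leaving out CCR7- replicate 1 or 2, CCR7+ replicate 2 or 3, or both arrays of any replicate number left 1 called marker. Without both Ifnar1-KO replicate 2 arrays 9 markers were called, and with the GF groups fitted alone 7. Cd8b1, a chain of the CD8 coreceptor, rose by 2.03 ± 0.40 (adjusted p = 0.00163). The part of thymocyte RNA in the genes that rose was not tested.

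Of the remaining marker lists, 1 of 10 B cell genes fell (Fcrla, -2.26 ± 0.14), and 0 of 6 plasmacytoid DC genes were called, with Ccr9 (-1.43) and Siglech (-0.65) furthest from 0. Of 14 SIRPA+ DC and macrophage genes Lyz2 (-2.44 ± 0.52) and Csf1r (-1.22 ± 0.14) fell and C1qb rose by 0.46 ± 0.11. The called shares of the lists in this paragraph lay near or below the 21.3% of all genes. Krt14 rose by 0.32 ± 0.10 among 10 thymic epithelial genes and Ncr1 by 0.30 ± 0.07 among 10 NK and granulocyte genes. Both had values no higher than 4.56, and the call of Krt14 ended in 8 of its 16 alternatives. The mean level of the B cell list was 4.38 to 4.44 on CCR7- arrays. None of 2 erythroid and 4 sex-linked genes was called. Of 8 reference genes Tfrc, the transferrin receptor, fell by 2.17 ± 0.30.

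**Figure D4:**
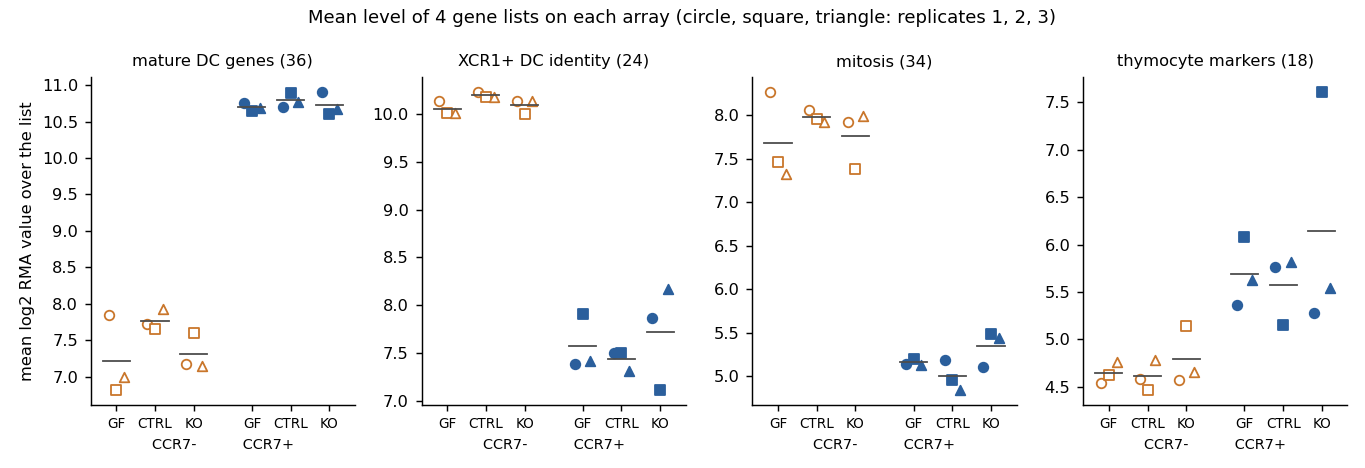
Mean log2 RMA value over 4 gene lists (vertical axes, which differ between panels) on each of the 18 arrays, by stage and background; shapes are replicates, open symbols CCR7- and filled symbols CCR7+ arrays, and lines are group means. Among germ-free arrays CCR7- replicate 1 is highest for mature DC genes (7.85) and mitosis genes (8.27), and CCR7+ replicate 2 is highest for XCR1+ DC identity genes (7.91) and thymocyte markers (6.08).

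The same maturation change was then compared with that of the other mice, with which it shares no array. In CTRL mice 5218 genes were called (26.2%) and in Ifnar1-KO mice 4036 (20.2%). Of the 2150 genes with a called change of at least 1 in GF mice, 2061 (95.9%) were called in the same direction in CTRL mice and 1986 (92.4%) in Ifnar1-KO mice, and 0 were called in the opposite direction in either. Of 2387 such genes of CTRL mice 2211 (92.6%), and of 2101 of Ifnar1-KO mice 1983 (94.4%), were called the same way in GF mice. Across all genes, which are not independent, the changes correlated at 0.953 with CTRL and 0.946 with Ifnar1-KO. The median ratio of the GF to the CTRL change was 0.993 over the 2150 genes, and that to the Ifnar1-KO change 1.06.

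**Figure D5:**
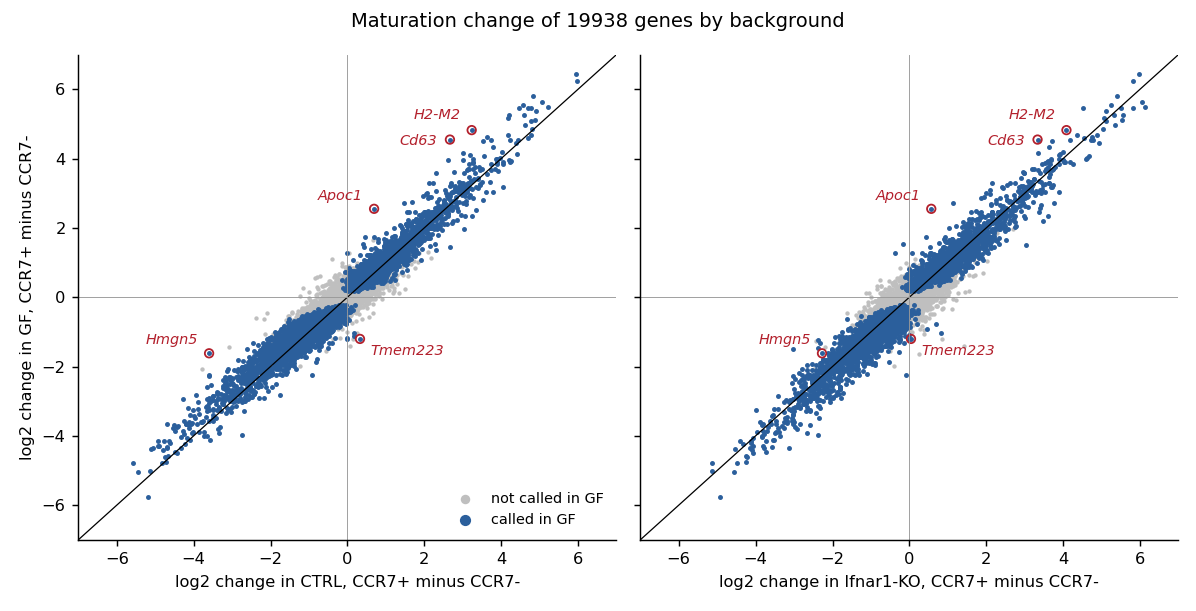
Log2 change of each of 19938 genes in germ-free mice (vertical axis) against its change in CTRL (left) and Ifnar1-KO mice (right); blue points are called in germ-free mice, the line marks equal changes, and circles mark the 5 called genes with the largest difference from CTRL. Points follow the line (Pearson r 0.953 and 0.946), and Cd63 (4.55 against 2.67) and Apoc1 (2.55 against 0.69) lie above it in the CTRL panel.

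Tests of the difference found no gene past the threshold. For GF minus CTRL, limma called 0 genes (0%), with a smallest adjusted p of 0.999 and 660 genes, fewer than 5% of those tested, at an unadjusted p under 0.05. Over the alternative settings the lowest adjusted p was 0.0718. For GF minus Ifnar1-KO it also called 0 (0%), again with 660 genes at an unadjusted p under 0.05. Leaving out Ifnar1-KO CCR7+ replicate 1 gave 1 called gene, Fndc10 (difference -1.63, adjusted p = 0.0394), and leaving out GF CCR7- replicate 1 gave Blvrb (-2.34, adjusted p = 0.0423), both named for these values. On Ifnar1-KO CCR7+ replicate 2 the mean of the thymocyte markers was 7.61, against 5.28 and 5.55 on the other Ifnar1-KO CCR7+ arrays; without both Ifnar1-KO replicate 2 arrays the difference again had 0 calls. These 0 counts do not show equal changes. The 95% interval of the difference from CTRL lay wholly within 1 log2 unit of 0 for 1131 of the 2150 genes (52.6%), and its median half-width over them was 0.72.

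Single genes show what these intervals allow. The smallest p-values of GF minus CTRL, none of them called, belonged to Tmem231 of the ciliary transition zone and to Birc5 (survivin), which acts in mitosis. Birc5 fell by 2.27 ± 0.18 in GF mice, from 9.33, 9.16 and 8.63 to 6.57, 6.8 and 6.95, and fell by 3.6 in CTRL mice, a difference of 1.33 with a 95% interval of 0.79 to 1.87, at an unadjusted p of 0.000112 and an adjusted p of 0.999. Tmem231 fell by 1.33 ± 0.11 in GF and fell by 0.48 in CTRL mice, a difference of -0.86 with a 95% interval of -1.2 to -0.51. For Uck2, a pyrimidine salvage kinase, the change was -0.45 ± 0.28 in GF and -2.09 in CTRL mice, and for the chemokine Ccl11 0.13 ± 0.18 and 1.18. Atxn10, Chaf1b, Cacna1e, Zbtb11os1, Gpm6b and Ecm1 completed the 5 genes per direction. Against Ifnar1-KO mice the smallest p-values named by the rule included those of Lpar6, a lysophosphatidic acid receptor, which fell by 3.91 ± 0.18 in GF and fell by 2.68 in Ifnar1-KO mice, and Sik1, a salt-inducible kinase, with -0.91 ± 0.21 and 0.47. Gpc1, a surface proteoglycan, rose by 1.68 ± 0.08 in GF and by 1.12 in Ifnar1-KO mice.

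Among called GF changes of at least 1, the largest differences from CTRL were those of Hmgn5, Cd63, Apoc1, H2-M2 and Tmem223. Apoc1, a lipoprotein component, read 3.93, 3.76 and 3.56 in GF CCR7- and 4.85, 6.83 and 7.22 in GF CCR7+ cells, a rise of 2.55 ± 0.49, against 0.69 in CTRL and 0.57 in Ifnar1-KO mice. Its difference from CTRL was 1.86 with a 95% interval of 0.38 to 3.33, at an unadjusted p of 0.0171 and an adjusted p of 0.999, and CCR7+ replicate 1 lay below the others. Cd63 rose by 4.55 ± 0.62 against 2.67 in CTRL mice, and H2-M2, a class I-like molecule of mature DCs, by 4.82 ± 0.49 against 3.23; on CCR7+ arrays Cd63 read 11.92 to 12.22 in GF and 11.87 to 12.18 in CTRL mice, and H2-M2 10.87 to 11.28 and 11.46 to 11.48. On CCR7- arrays H2-M2 read 7.82, 5.07 and 6.01 in GF and 7.54 to 8.79 in CTRL mice, so for both genes GF replicates 2 and 3 lay below the CTRL range and replicate 1 within it. Hmgn5, a nucleosome-binding protein, changed by -1.62 ± 0.51 against -3.6 in CTRL mice. Tmem223 had -1.2 ± 0.40 against 0.33. The calls of Hmgn5 and Tmem223 in GF mice ended in 7 and 8 of 17 alternatives.

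By list, the GF change lay above the CTRL change for 30 of 36 mature DC genes, with a median difference of 0.32, and 0 of the differences were called. For mitosis genes it lay above, a smaller fall, for 29 of 34, with a median difference of 0.38. Over all genes the median difference was -0.02. Without GF CCR7- replicate 1 these medians were 0.48 and 0.63. With all arrays, the medians of GF minus Ifnar1-KO were -0.01 and -0.12. For NF-kB genes the GF change lay above the CTRL change for 16 of 23, with a median difference of 0.18 (0.33 without GF CCR7- replicate 1), although the median change of the list was 1.40 in GF and 1.48 in CTRL mice. For type I interferon stimulated genes it lay above for 33 of 46, against 9006 of 19938 over all genes. The median difference of that list was 0.07 (0.20 without GF CCR7- replicate 1). What else differs between the housings bears on these values: Eif2s3y, read at 7.71 to 8.76 on GF arrays, read 3.34 to 3.49 on CTRL arrays, while Xist read 7.80 to 9.63 there. On the Ifnar1-KO arrays Eif2s3y read 5.22 to 7.84 and Xist 6.14 to 8.91. Of 4 sex-linked genes 1 was called higher in CCR7+ cells of Ifnar1-KO mice. The flora and the sex of the mice cannot be told apart in the difference from CTRL. In the difference from Ifnar1-KO mice, flora, genotype and sex cannot be told apart. An r of unstated meaning ends the array codes of all 6 GF but only 2 CTRL and 4 Ifnar1-KO arrays. Over arrays with that mark alone, each CTRL stage rests on 1 array, so the spread of the CTRL arrays is not measured. The median difference from CTRL was then 0.39 for mature DC and 0.31 for mitosis genes. For type I interferon stimulated genes it was -0.17, the opposite sign to that with all arrays.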

How the data were processed

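The 18 arrays measured RNA of sorted thymic DCs, with 3 per group. The deposited values are log2 intensities made by RMA with the oligo package, per the submitters' processing notes; software versions and the set of arrays normalised jointly were not given in the sources used here. Of 35556 probesets, 21789 had exactly 1 gene symbol, 1621 several and 12146 none in the platform annotation. Each of 19938 genes was read from its probeset with the highest mean over the 18 arrays. RNA was amplified, and the number of arrays limits the precision.

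One mean per group was fitted to all 18 arrays with limma 3.58.1 in R 4.3.3 (12 residual degrees of freedom, 14.4 after eBayes), with Benjamini-Hochberg adjustment and a threshold of 0.05; the script was tested on simulated data. The named genes were the 12 largest separated changes per direction, the 4 largest called per list, the sort, sex-linked and Ifnar1 genes, the 5 smallest p-values per direction of each difference and the 5 largest differences from CTRL; others are marked as chosen after their values were seen. Members and lists were chosen with earlier results of these data known. Alternatives were an intensity trend, array weights, a level filter, median centring, mean probesets, fewer groups, a replicate block and leaving out arrays. Promoters and motifs are descriptions from RefSeq sequences.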

Additional observations from a re-analysis of the deposited data

How the results depend on the processing

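Called genes in the GF change numbered 3638 to 3916 when 1 array was left out, 3313 when the GF groups were fitted alone, and 4807 without both Ifnar1-KO replicate 2 arrays; among genes called in both fits, 0 changed direction under any of the 17 alternatives. Without both GF arrays of replicate 1, 2 or 3, settings chosen after seeing the data, 3207, 3374 and 3519 genes were called. The count for CTRL ran from 4083 to 4951 and for Ifnar1-KO from 3362 to 3879 when 1 array was left out. The difference from CTRL stayed at 0 calls, and that from Ifnar1-KO gave 0 to 1.

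With the replicate number as a block, 4555 genes were called in GF, 5556 in CTRL and 4353 in Ifnar1-KO mice, and 0 for either difference. The numbers did not pair the GF arrays by the rule used: deviations of same-numbered arrays correlated at 0.267, 0.00354 and 0.0296, and 2 of 6 GF arrays correlated best with their own number. In CTRL mice these correlations were 0.188, 0.147 and 0.1001, and in Ifnar1-KO mice 0.284, 0.321 and 0.236, all over 0.1, so by the rule the numbers pair the arrays there; the block moved neither count by over 1.5 times. Thymocyte calls were 6 under the block and ran from 1 to 9 over all alternatives.

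Of the values per named gene, 2571 kept their direction and side of the threshold, 52 of 10 genes lost a call, 8 of 4 genes gained one and 12 of 4 genes changed sign. Those 4 were Itgam, Xist, Kdm5d and Uty, and none was called with all arrays. Outside this count, the GF change of Atxn10, close to 0 at -0.005, ran from -0.069 to 0.104. When 1 GF array was left out, Itgam ran from -0.00 to 0.09, Xist from -0.10 to 0.18, Kdm5d from -0.11 to 0.13 and Uty from -0.19 to 0.53. Without both GF replicate 1 arrays Xist read -0.11, and Uty was called at 0.75 (adjusted p = 0.00869 in limma; 0.00869 to 0.949 over its alternatives). Without both replicate 2 arrays Xist read -0.002, Kdm5d 0.041 and Uty -0.16, and without both replicate 3 arrays Uty read -0.40. The cause was not tested. With 3 arrays a group, a difference between backgrounds had a median 95% half-width of 0.38.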

Other observations

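Of the 2150 genes with a called change of at least 1 in GF mice, 4 had a change of the opposite sign in CTRL mice, none of them called there: Tmem223, described with the largest differences, and Blvrb, Xcl1 and Gm14410. They were picked out for these values. Blvrb, an enzyme that reduces biliverdin, read 5.54, 7.33 and 6.66 in GF CCR7- and 5.36, 5.61 and 5.47 in GF CCR7+ cells, a change of -1.03 against 0.17 in CTRL and 0.83 in Ifnar1-KO mice. Its GF arrays overlap between stages, since CCR7- replicate 1 lies below CCR7+ replicate 2. Xcl1, a ligand of XCR1, read 7.12, 5.70 and 6.10 and then 5.66, 4.87 and 5.0, a change of -1.13 against 0.17 in CTRL mice. The predicted gene Gm14410 changed by 1.27 against -0.00 in CTRL and -0.38 in Ifnar1-KO mice. The adjusted p of the difference from CTRL was 0.999 for each of these genes.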
